A study of Mus musculus with 13 samples.

Results

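Integrins are the receptors by which fibroblasts hold on to the extracellular matrix. Each receptor is 1 α chain and 1 β chain, and the pair decides the ligand: Itgb1 joins most α chains, while Itgav also joins Itgb3 and Itgb5. Both chains are made on ribosomes at the endoplasmic reticulum (ER), folded with many disulfide bonds and N-glycans, paired in the ER and carried to the cell surface. Described here are 10 subunits taken by symbol from 22406 gene symbols, the β chains Itgb1, Itgb3 and Itgb5 and the α chains Itga1, Itga3, Itga4, Itga5, Itga6, Itga11 and Itgav.

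The ribosomes on their mRNAs were followed by ribosome footprint profiling, the sequencing of the mRNA stretches that ribosomes cover. Mouse embryonic fibroblasts (MEFs) of the genotypes PERK WT and PERK -/- were left untreated (control) or received 1 µM thapsigargin (Tg), a blocker of the ER calcium pump, for 1, 2, 5 or 8 h. Mouse NIH3T3 fibroblasts, labelled WT in genotype, were left untreated or received 200 nM Tg for 2 or 7 h. PERK is the ER stress kinase that phosphorylates eIF2α and so lowers translation initiation. All cells were trypsinized, pelleted and flash frozen, with no cycloheximide in any group. Each of the 13 conditions was 1 library of 1 cell population. No difference could therefore be set against the spread between replicates, and no p-value is given. The intervals have 95% confidence and cover counting error only.

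Footprint levels are given in TPM, a unit of counts per coding length scaled to the same sum in every library. A TPM value is a share of the ribosome footprints of that library, so a lower value means a loss relative to other genes and not a known loss of molecules. In such bulk samples, fewer cells that translate a gene and fewer ribosomes per cell cannot be told apart. A footprint level also joins the amount of an mRNA with the ribosomes on each copy. None of the libraries measured mRNA, so a change in mRNA and a change in translation cannot be told apart either. Values under 4 TPM were raised to 4, and every change is the ratio of a Tg library to its own untreated control. A change of at least 2-fold is here named 2-fold lower or higher. The background is the 10432 genes in MEFs and the 10117 in NIH3T3 cells whose TPM averaged at least 2. In MEFs 8 of the 10 subunits reached that mean, and Itga1 and Itga4 did not. In NIH3T3 cells 6 reached it, namely Itgb1, Itgb5, Itga3, Itga5, Itga6 and Itgav. The library totals ran from 2525029 to 14799515 expected counts.

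The labels were set against Atf4 and Eif2ak3. Atf4, a transcription factor whose translation rises when eIF2α is phosphorylated, was 14.1 to 16.7-fold of control in WT MEFs at all 4 times and 0.606 to 1.45-fold in PERK -/- MEFs. In NIH3T3 cells it was 8.36 and 2.96-fold of control at 2 and 7 h. Eif2ak3, which encodes PERK, had 254 expected counts (21.3 CPM, that is, scaled by the library total) in the WT control and 74 (11.0 CPM) in the PERK -/- control. Its TPM went the other way, 6.03 against 11.2, and its footprints were still counted in the PERK -/- library. The deleted exons are not marked in a gene table, so this gene does not check the labels. The 9 fibroblast markers of the list summed to 4826 to 8983 TPM in every library. Not all of them were high, since Col3a1 was at most 1.67 TPM in NIH3T3 cells and Pdgfra at most 2.79 TPM in WT MEFs. Leukocyte and endothelial markers summed to at most 5.14 TPM in MEFs, and in NIH3T3 cells leukocyte markers summed to 12.9 to 50.7 TPM, most of it Lyz2. Epithelial markers summed to at most 17.7 TPM in MEFs and 35.7 in NIH3T3 cells, and muscle markers to at most 11.7. Ptprc, Lyz2, Itgam and Itgal were at 0 in all WT MEF libraries, while Cd68 reached 2.04 TPM in WT and 4.49 TPM in PERK -/- MEFs.

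The coding sequences show how the α and β chains differ, and which bases were counted. The tails that follow are the stretches inside the cell, near the 3′ end of each coding sequence, for the subunits on which the results turn. In the β chains the capitals mark an Asn-Pro-x-Tyr stretch (AAT or AAC, then CCN, NNN and TAT or TAC), to which talin binds. In the α chains they mark the Gly-Phe-Phe stretch beside the membrane (GGN, then TTT or TTC in both next codons).
Itgb1: ggtgaaAATCCTATTTACaag
Itgb3: gcaaacAACCCGCTGTATaaa
Itgb5: gcctcaAACCCCCTGTACaga
Itgav: aggatgGGCTTTTTCaaacgt
Itga5: aagctcGGCTTCTTCaaacgt
Itga6: aagtgtGGCTTCTTCaagaga
Itga3: aagtgcGGCTTCTTCaagcga

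The β stretch was found in all 3 β chains and the α stretch in all 7 α chains. Within the last 60 codons, on the coding strand and in frame, 0.431% of 21559 coding genes hold the former and 0.821% the latter. The β chains are rich in cysteine, with 71.2 to 72.6 cysteine codons per 1000 codons, against 17.7 to 25.2 in the α chains. The first bases of 3 subunits are shown because the authors clipped 30 nt from each end before mapping, so the capitals are where counting begins.
Itgb1: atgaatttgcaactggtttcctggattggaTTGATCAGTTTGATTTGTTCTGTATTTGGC
Itga5: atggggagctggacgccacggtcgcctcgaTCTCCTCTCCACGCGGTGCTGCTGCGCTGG
Itga6: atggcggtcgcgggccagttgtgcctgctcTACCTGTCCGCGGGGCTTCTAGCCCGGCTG

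These differ in base composition. The whole coding sequence of Itgb1 has 42.6% G and C, that of Itga6 48.1% and that of Itga5 56.9%, where the median expressed gene has 52.8%. Stretches of 28 nt, about a footprint long, were not shared with another gene in 8 of the 10 subunits. The exceptions were Itga1 with 1.05% of its stretches and Itga11 with 0.0848%. The coding sequence of Itga1 also overlaps the predicted gene Gm49395, so its low counts are uncertain. Sequences are of GENCODE M21 on GRCm38, the assembly of mm10, and coordinates are those of RefSeq on GRCm38.

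In the untreated cells Itgb1 led by far. It had 1425 TPM in WT MEFs (42542 expected counts), 1279 in PERK -/- MEFs and 786 in NIH3T3 cells, which is 97.8%, 95.8% and 92.1% of the TPM of the 3 β chains. Itgav, the α chain of the vitronectin receptors, followed with 335, 293 and 132 TPM. Itga5, which with Itgb1 forms the main fibronectin receptor, came next with 165, 117 and 79.9 TPM.

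Below these the order differed between cells. In the WT control Itga3 (44.4 TPM) and Itga6 (41.4 TPM), both α chains of laminin receptors, had overlapping counting intervals. Itgb5 lay under them with 27.5 TPM. In the NIH3T3 control Itgb5 came next after Itga5 with 67.4 TPM, far above Itga6 with 7.36 and Itga3 with 4.19. The collagen receptor chains were low. Itga1 never passed 1.10 TPM in any library, and Itga11 lay between 0.10 and 1.17 TPM in WT MEFs and between 3.06 and 9.21 in PERK -/- MEFs. Itga4, better known from leukocytes, was at most 1.98 TPM in MEFs and had 0 counts in all 3 NIH3T3 libraries. A count of 0 allows up to 1.17 CPM in the smallest of those.

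The untreated genotypes were themselves apart. In the PERK -/- control 2 subunits were at least 2-fold higher than in the WT control, where 6.04% of all genes were, and 0 were 2-fold lower, where 1.97% were. The 2 were Itgb3, the partner of Itgav in the vitronectin receptor, with 170 counts against 134 (10.5 and 4.67 TPM), and Itga11 with 233 counts against 15 (9.21 and 0.33 TPM). For Itga11 the log2 ratio of counts was 4.78 (interval 4.03 to 5.64). Itga11 reached the mean of 2 TPM in MEFs only through its PERK -/- libraries, so its call rests on the group where it was high. Itgb5 was 1.65-fold of WT, Itga6 0.629-fold and Itga5 0.708-fold, while Itgb1 (0.898-fold) and Itgav (0.876-fold) lay nearer to 1. With 1 library and 1 cell population a genotype, the deletion and the origin of each line cannot be told apart.

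**Figure D1:**
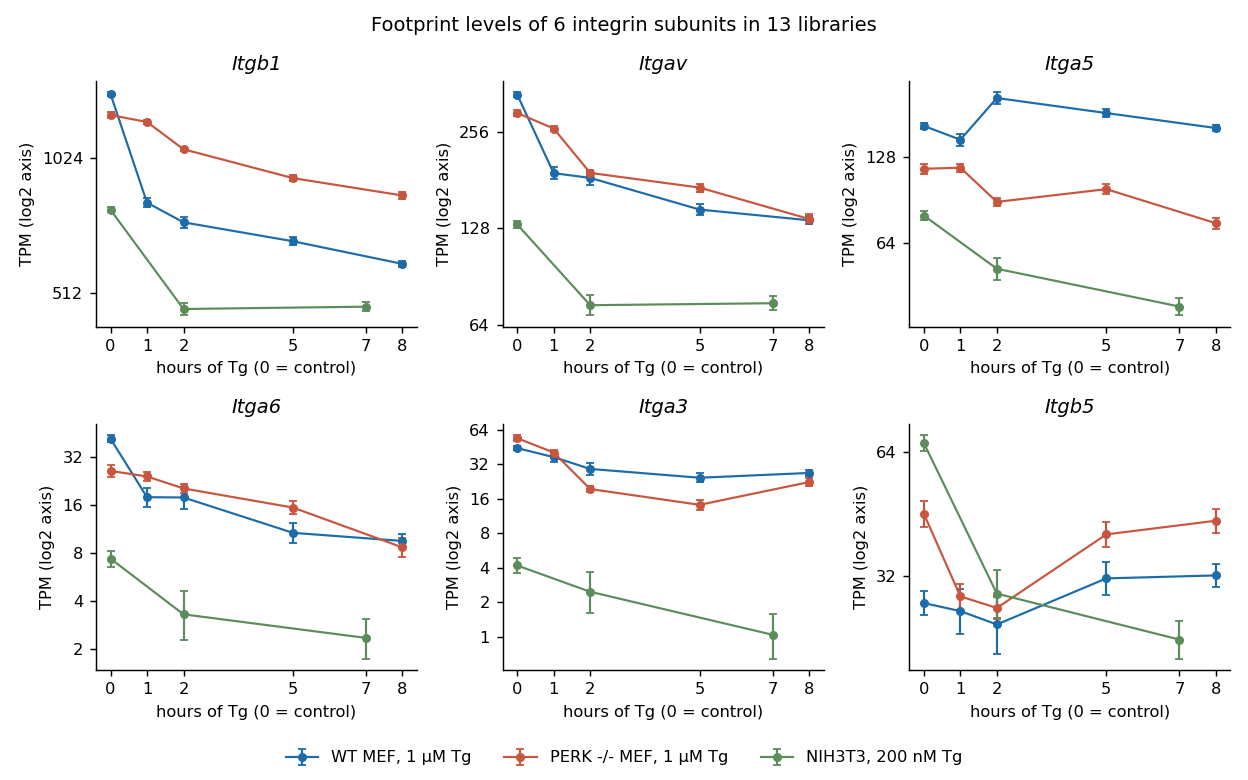
TPM on a log2 axis (vertical) against hours of Tg (horizontal, 0 is the control) for 6 integrin subunits in 5 WT MEF libraries, 5 PERK -/- MEF libraries and 3 NIH3T3 libraries. Bars are 95% counting intervals, lines join libraries of one cell population, and the WT lines of Itgb1, Itgav and Itga6 are lower at 1 h than those of PERK -/- MEFs.

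Itgb1 (chromosome 8, 128685654 to 128733579) is the common β chain. From the control to 8 h of Tg, in the order of time, its levels in WT MEFs were 1425, 816, 737, 669 and 595 TPM. The 4 Tg libraries all lie under the control and each lies under the one before. The change was 1.75-fold lower at 1 h and 2.39-fold lower at 8 h, where the log2 change of counts was -1.26 (interval -1.28 to -1.23). With a trend on base composition taken out, the log2 change at 8 h was -0.90, which is under 2-fold. In PERK -/- MEFs the values were 1279, 1234, 1073, 925 and 846 TPM. Here the 1 h library is close to its control, and the change at 8 h was 1.51-fold lower. The log2 change in PERK -/- minus that in WT was 0.77 (interval 0.73 to 0.81) after 1 h of Tg and 0.65 (0.61 to 0.69) after 8 h. With the base composition trend taken out these differences were 0.43 and 0.24. Most genes had a smaller difference in TPM, since 7.40% of all genes were as high or higher at 1 h. The 3 NIH3T3 libraries, again in the order of time, had 786, 472 and 478 TPM of Itgb1, nearly the same at both Tg times.

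Itgav (chromosome 2, 83722303 to 83806917) went much like Itgb1 in WT MEFs, with 335, 190, 184, 146 and 136 TPM. Its values in PERK -/- MEFs were 293, 262, 191, 171 and 137 TPM. At 1 h the genotypes stood apart, and at 8 h both ended at nearly the same level. The change at 8 h was 2.47-fold lower in WT and 2.14-fold lower in PERK -/- MEFs, and the difference of the log2 changes had shrunk from 0.67 (0.59 to 0.75) at 1 h to 0.19 (0.12 to 0.27). Without the base composition trend they were 0.63 and 0.06. A difference in TPM as high or higher was found in 9.97% of all genes at 1 h and 35.8% at 8 h. In NIH3T3 cells its levels were 132, 73.6 and 74.7 TPM.

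Itga6 (chromosome 2, 71786886 to 71858427) had the largest decrease of the 10 in WT MEFs at every time, as measured by TPM. Its levels there were 41.4, 17.8, 17.8, 10.7 and 9.49 TPM (1697, 223, 155, 206 and 364 counts). Every Tg library was at least 2-fold under the control, and at 8 h the change was 4.36-fold lower, and the counts changed by -2.12 in log2 (-2.29 to -1.96). Of all genes, 0.163% went as low or lower. In PERK -/- MEFs it had 26.0, 24.0, 20.2, 15.4 and 8.65 TPM, and only the 8 h library was 2-fold lower, at 3.01-fold. The difference of the log2 changes was 1.11 (0.86 to 1.36) at 1 h, 1.21 (0.94 to 1.48) at 5 h and 0.51 (0.23 to 0.79) at 8 h. Without the base composition trend it was 1.01, 1.07 and 0.34. In TPM, 2.64% of all genes had a difference as high or higher at 1 h and 18.9% at 8 h. In NIH3T3 cells Itga6 had only 304, 34 and 50 counts, and the log2 change of counts at 7 h was -1.65 (-2.12 to -1.22).

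Itga5 (chromosome 15, 103344286 to 103366791) was never 2-fold lower in MEFs. In WT it had 165, 147, 206, 183 and 162 TPM, so the libraries at 2 and 5 h lay above the control. Its log2 change of counts was 0.34 (0.26 to 0.42) at 2 h and -0.01 (-0.06 to 0.04) at 8 h. Its PERK -/- levels were 117, 118, 89.2, 98.9 and 75.1 TPM, under the control from 2 h on. The difference of the log2 changes was 0.18 (0.08 to 0.28) at 1 h, -0.65 (-0.75 to -0.55) at 2 h, -0.38 (-0.48 to -0.28) at 5 h and -0.63 (-0.73 to -0.53) at 8 h. Its sign was thus that of Itgb1, Itgav and Itga6 at 1 h and the opposite from 2 h on. Without the base composition trend the differences were 0.50, -0.17, -0.11 and -0.41, beside 0.17, -0.71, -0.39 and -0.61 in TPM. Differences of this size in TPM were common. Of all genes 30.3% were as high or higher at 1 h, and 25.1%, 31.1% and 16.8% as low or lower at 2, 5 and 8 h. In NIH3T3 cells the levels were 79.9, 52.1 and 38.4 TPM, and at 7 h Itga5 was 2.08-fold lower, a call that the scaling by TMM factors ended (log2 change -0.97).

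Itga3 (chromosome 11, 95044475 to 95076844) also had the larger decrease in PERK -/- MEFs, as measured by TPM. Its levels were 44.4, 37.0, 29.2, 24.5 and 26.9 TPM in WT and 54.2, 40.6, 19.5, 14.2 and 22.4 TPM in PERK -/- MEFs. In the latter it was 2-fold lower at 2, 5 and 8 h and lowest at 5 h, 3.82-fold under the control. The difference of the log2 changes was -1.07 (-1.30 to -0.85) at 5 h, and -0.75 without the base composition trend. At 1, 2 and 8 h it was -0.15, -0.87 and -0.55 in TPM, and 0.21, -0.28 and -0.32 without that trend. In TPM, 9.16% of all genes had a difference as low or lower at 5 h and 18.9% at 8 h. In NIH3T3 cells it had 169, 25 and 21 counts, too near the floor of 4 TPM for a change in TPM, and by counts the log2 change at 7 h was -2.06 (-2.79 to -1.40).

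Itgb5 (chromosome 16, 33829665 to 33949338) forms a vitronectin receptor with Itgav. It had 27.5, 26.3, 24.4, 31.6 and 32.1 TPM in WT and 45.3, 28.5, 26.7, 40.4 and 43.6 TPM in PERK -/- MEFs. In WT no library left the control by more than 1.17-fold. PERK -/- MEFs had lower levels at 1 and 2 h (1.59 and 1.70-fold) and a level near the control at 8 h. Without the base composition trend the log2 changes at 1 and 2 h were -0.48 and -0.47, beside -0.67 and -0.76 in TPM. NIH3T3 cells differed, with 67.4, 29.0 and 22.4 TPM, 2.33-fold lower at 2 h and 3.01-fold lower at 7 h.

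The scarce subunits rest on few counts. Itgb3 (chromosome 11, 104608000 to 104670476) had 134, 19, 17, 19 and 37 counts in WT and 170, 150, 140, 36 and 65 in PERK -/- MEFs. The TPM floor hides its decrease in WT, where the log2 change of counts at 8 h was -1.76 (-2.33 to -1.23), beside -1.53 (-1.97 to -1.11) in PERK -/- MEFs. Itga11 (chromosome 9, 62677855 to 62783979) could be followed in PERK -/- MEFs, with 233, 175, 228, 177 and 85 counts, and was 2-fold lower at 1, 2 and 8 h. At 1 h this call was close to the limit (log2 change -1.02 in TPM and -0.98 in counts). Itga1 (chromosome 13, 114958079 to 115101964) had 6 to 49 counts in MEFs and Itga4 (chromosome 2, 79255426 to 79333114) had 1 to 53. For Itga4 in WT MEFs 26 counts at 8 h stood against 9 in the control, which is 1.63 in log2 of counts per library total (0.49 to 2.91), opposite in direction to Itgb1.

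**Figure D2:**
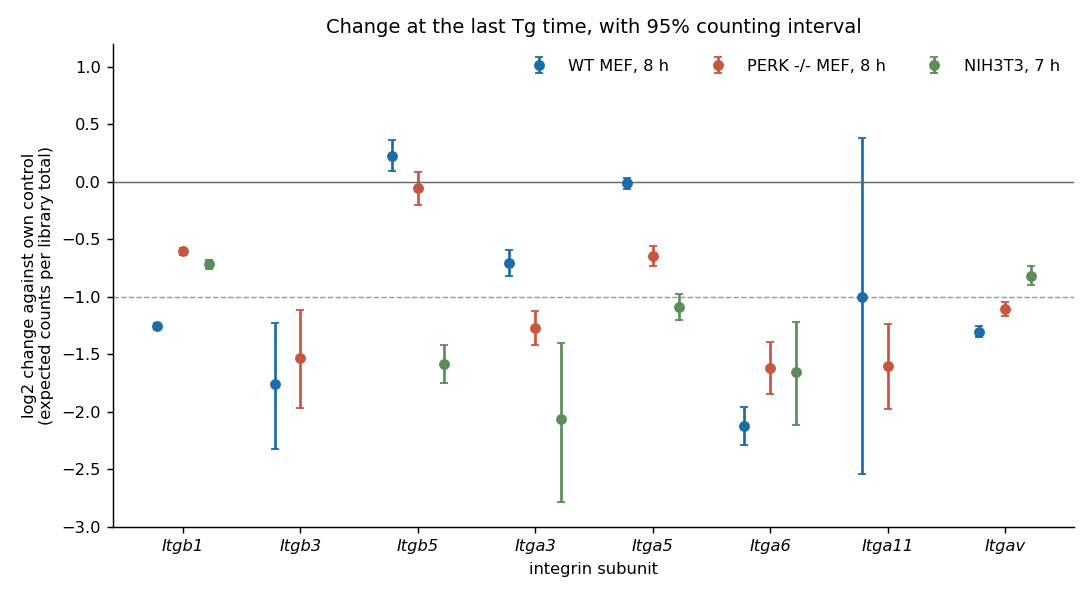
Log2 change of expected counts per library total against the own control (vertical) for 8 subunits (horizontal) in WT and PERK -/- MEFs at 8 h and NIH3T3 cells at 7 h. Bars are 95% counting intervals and the dashed line is 2-fold lower. Itgb3 and Itga11 are not shown for NIH3T3 cells, where their mean TPM was under 2, and the point of Itga5 in WT lies at -0.01.

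Counted together, the 10 subunits leaned down. In WT MEFs 1, 1, 3 and 3 of them were 2-fold lower at 1, 2, 5 and 8 h, against 2.29%, 4.01%, 3.55% and 3.87% of all genes. Those at 5 and 8 h were Itgb1, Itga6 and Itgav, and at 1 and 2 h it was Itga6 alone. In floored TPM none was 2-fold higher, where 4.33%, 5.66%, 5.86% and 6.45% of all genes were.

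In PERK -/- MEFs 1, 3, 2 and 5 of the 10 were 2-fold lower at the same times, against 3.38%, 5.78%, 4.77% and 2.73% of all genes. The 5 at 8 h were Itgb3, Itga3, Itga6, Itga11 and Itgav. So Itga6 and Itgav were low in both genotypes at 8 h, and Itgb1 only reached 1.51-fold in PERK -/- MEFs. Itgb3 and Itga11 started from 10.5 and 9.21 TPM in the PERK -/- control. In the WT control they had 4.67 and 0.33 TPM, where the floor of 4 TPM leaves almost no room for a decrease. The numbers of both genotypes are thus not like for like. Again none was 2-fold higher, where 0.719%, 0.623%, 3.26% and 3.28% of all genes were. In NIH3T3 cells Itgb5 at 2 h and Itgb5 and Itga5 at 7 h were 2-fold lower, against 3.76% and 8.06% of all genes. In floored TPM 0 of 10 were higher, against 5.76% and 7.01%. The 10 include subunits under the mean of 2 TPM, which the floor keeps from any call, and the shares do not include such genes. By counts these moved either way, as Itga11 in NIH3T3 cells with 1.88 in log2 (0.86 to 2.89) at 2 h and -3.37 (-8.75 to -0.73) at 7 h.

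In floored TPM the medians were near those of all genes in WT, and the floor sets 2 to 4 of the 10 subunits to no change in each comparison. Over all 10, the median log2 change in WT was between -0.20 and -0.11, beside 0.00 to 0.01 over all genes. For PERK -/- MEFs it went from -0.14 at 1 h to -0.87 at 8 h, beside -0.06 and 0.04 over all genes. In NIH3T3 cells it was -0.34 at 2 h and -0.39 at 7 h, beside -0.13 and 0.00. Counts per library total, which have no floor, gave lower medians in WT, -0.64, -0.78 and -0.83 at 2, 5 and 8 h, against -0.43, -0.54 and -0.87 in PERK -/- MEFs. The genotypes thus stood apart at 8 h in floored TPM and hardly by counts, and at 2 and 5 h their order turned. In NIH3T3 cells at 7 h the median was -0.95 by counts, -0.77 with a floor of 1 TPM and -0.96 after thinning to the smallest library. Itgb1, Itga3, Itga6 and Itgav were each lower than their own control in all 10 Tg libraries, though by 1.05-fold or less for Itga3 in NIH3T3 cells after the floor and for Itgb1 in PERK -/- MEFs at 1 h. Itga5 was lower in 7 and Itgb5 in 8 of 10. Of all genes, 40.1% to 58.8% were lower than control in each of these comparisons.

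Neighbouring times are the nearest thing to repeats here. Between 1 and 2 h in WT the log2 TPM ratios of all genes had an SD of 0.46, and Itga5 moved by 0.48. The SD in PERK -/- MEFs was 0.30 over the same step, and Itga3 moved by -1.06. Between 5 and 8 h in WT the SD was 0.19, and no subunit moved by more than 0.17. Between 5 and 8 h in PERK -/- MEFs the SD was 0.54, and Itga6 (-0.83) and Itga3 (0.66) moved the most.

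With Itgav and Itga5 moving apart, the makeup of the α chains changed in WT MEFs. Of the TPM of the 7 α chains, Itgav held 57.1% before Tg and 40.4% after 8 h, while Itga5 went from 28.1% to 48.2%. The ratio of Itga5 to Itgav started at 0.492 (0.477 to 0.506) and, over the 4 Tg times, was 0.774, 1.12, 1.25 and 1.19 (1.15 to 1.24). So by TPM Itga5 was the leading α chain in WT from 2 h on. These ratios still hold the base composition trend, and Itga5 has 56.9% G and C against 49.3% in Itgav. With the trend taken out, the WT log2 changes of Itga5 and Itgav were 0.14 and -0.80 at 2 h. At 5 h they were -0.08 and -1.13, and at 8 h -0.30 and -1.23. Set on the control levels of 165 and 335 TPM, these changes put Itga5 slightly under Itgav at 2 and 8 h. At 5 h they put the 2 chains about level. The lead of Itga5 from 2 h on thus rests on TPM that still hold the trend. The PERK -/- ratio was 0.397 in the control and at most 0.577 (0.550 to 0.605) later, and in NIH3T3 cells it was 0.607, 0.707 and 0.514. Itgav led in all 8 of those libraries.

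The ratio of Itgb1 to Itgav stayed between 4.01 and 4.57 in all 5 WT libraries. The PERK -/- control had 4.36 and the 8 h library 6.19, and the NIH3T3 libraries had 5.97 to 6.42. Against all α chains together, the 3 β chains had 2.49 times their TPM in the WT control and 1.87 times at 8 h, but 2.67 and 3.59 times in PERK -/- MEFs. The sum of all 10 subunits was 0.204% of the TPM of the WT control and 0.0965% at 8 h. PERK -/- MEFs went from 0.183% to 0.114% and in NIH3T3 cells from 0.108% to 0.0617% at 7 h.

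**Figure D3:**
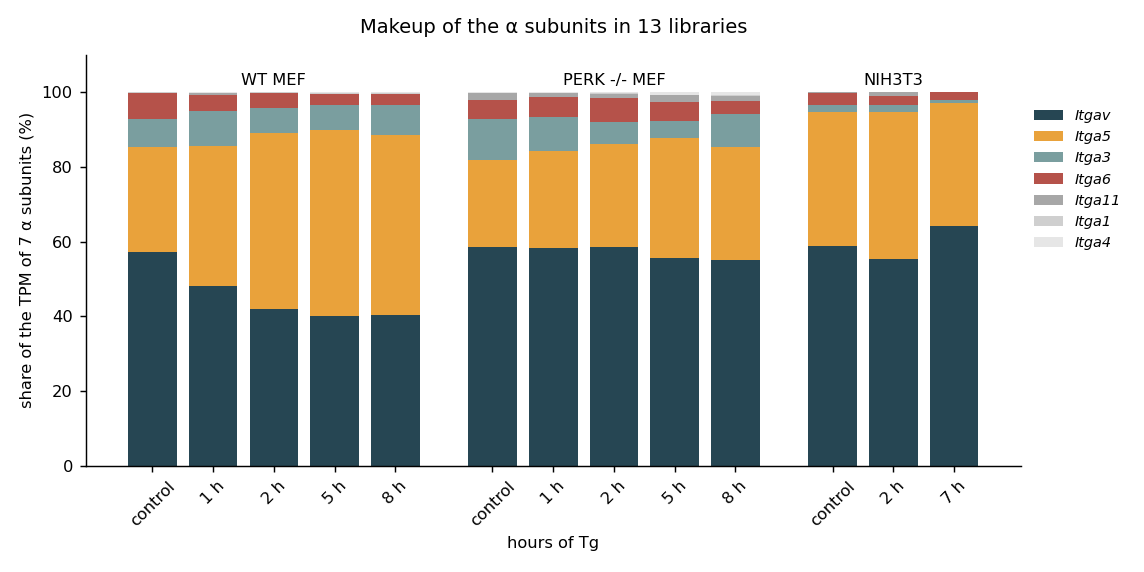
Share of each α chain in the TPM of the 7 α chains (vertical, percent) in each of the 13 libraries (horizontal, by hours of Tg), stacked to 100. The Itga5 share in WT MEFs goes from 28.1% in the control to 48.2% at 8 h and stays between 23.3% and 32.1% in PERK -/- MEFs.

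The genes that work with integrins were taken from lists by role. Of the cytoplasmic partners, which join integrin tails to actin and signalling, 22 of 25 reached the mean TPM in MEFs. At 8 h 1 was 2-fold lower and 1 higher in WT, with a median log2 change of 0.14, and 1 was lower and 0 higher in PERK -/- MEFs (median -0.01). Beside these and the other lists stand the shares of all genes at 8 h, 3.87% lower and 6.45% higher in WT and 2.73% and 3.28% in PERK -/- MEFs. Parvb, a parvin that binds the integrin-linked kinase, was the lower one in both, at 47.4 and 20.8 TPM in the WT control and at 8 h. Kank2, a talin-binding protein, was higher in WT with 20.1 and 43.3 TPM. Dab2, an endocytic adaptor of integrins, had 29.5 and 17.9 TPM and Sharpin, an inhibitor of Itgb1 activation, 16.5 and 23.4. In NIH3T3 cells at 7 h 3 of 22 were 2-fold lower, Dab2 among them, against 8.06% of all genes, and the median was -0.04.

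The list of matrix ligands holds proteins made at the ER, most of them secreted, with Vcam1 a cell surface protein. Of the 20 measured in MEFs, 19 were lower than control in WT at 8 h, where 41.1% of all genes were, and 3 were 2-fold lower (Spp1, Nid1 and Vcam1), against 3.87%. Their median was -0.60, beside 0.01 at most over all genes in WT. In PERK -/- MEFs 19 were lower, where 40.1% of all genes were, and 11 were 2-fold lower, Fn1 among them, against 2.73%, with a median of -1.19. Nid1, nidogen of the basement membrane, had 170 and 35.5 TPM in WT and 122 and 28.9 in PERK -/- MEFs. Spp1, osteopontin and a ligand of Itgav, went from 932 to 326 TPM in WT and from 1095 to 645 in PERK -/- MEFs. Vcam1, the ligand of the Itga4 receptor, had 168 and 72.7 TPM in WT and 53.6 and 42.3 in PERK -/- MEFs. Cyr61, a matricellular ligand, had 1045 and 527 TPM in WT and 813 and 316 in PERK -/- MEFs. In NIH3T3 cells at 7 h 10 of 18 ligands were 2-fold lower (median -1.09), against 8.06% of all genes.

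The surface partners were mixed. Of 15 measured in MEFs, 3 were 2-fold lower and 1 higher in WT at 8 h (median -0.13), against 3.87% and 6.45% of all genes. In PERK -/- MEFs 0 were lower and 1 higher (median 0.32), against 2.73% and 3.28%. The higher one in both was Slc3a2, the CD98 heavy chain that binds β tails and carries amino acid transporters, with 255 and 1572 TPM in WT and 263 and 1123 in PERK -/- MEFs. The lower ones in WT were Pdpn (144 and 63.7 TPM), the hyaluronan receptor Cd44 (1259 and 599 TPM) and the syndecan Sdc4 (384 and 183 TPM). Pdpn was higher in PERK -/- MEFs at 8 h, with 59.0 and 112 TPM. In NIH3T3 cells at 7 h 2 of 14 were 2-fold lower, against 8.06% of all genes, and Slc3a2 was again higher.

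Of the genes that fold and process integrins in the ER, 16 of 17 were measured in MEFs. Hspa5, the chaperone BiP, had 1357 and 7149 TPM in WT at 8 h and 1646 and 4376 in PERK -/- MEFs. Pdia4, a disulfide isomerase, had 303 and 639 TPM in WT and 432 and 720 in PERK -/- MEFs. Furin, the protease that cuts the α chains Itgav, Itga3, Itga5 and Itga6 into heavy and light parts, was lower in both genotypes, with 48.7 and 16.4 TPM in WT and 61.0 and 23.3 in PERK -/- MEFs. Cnpy4, related to ER chaperones of receptors, had 114 and 55.9 TPM in WT. Over the list, 2 were 2-fold lower and 2 higher in WT at 8 h (median -0.04), against 3.87% and 6.45% of all genes. For PERK -/- MEFs 1 was lower and 1 higher (median 0.66), against 2.73% and 3.28%.

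**Figure D4:**
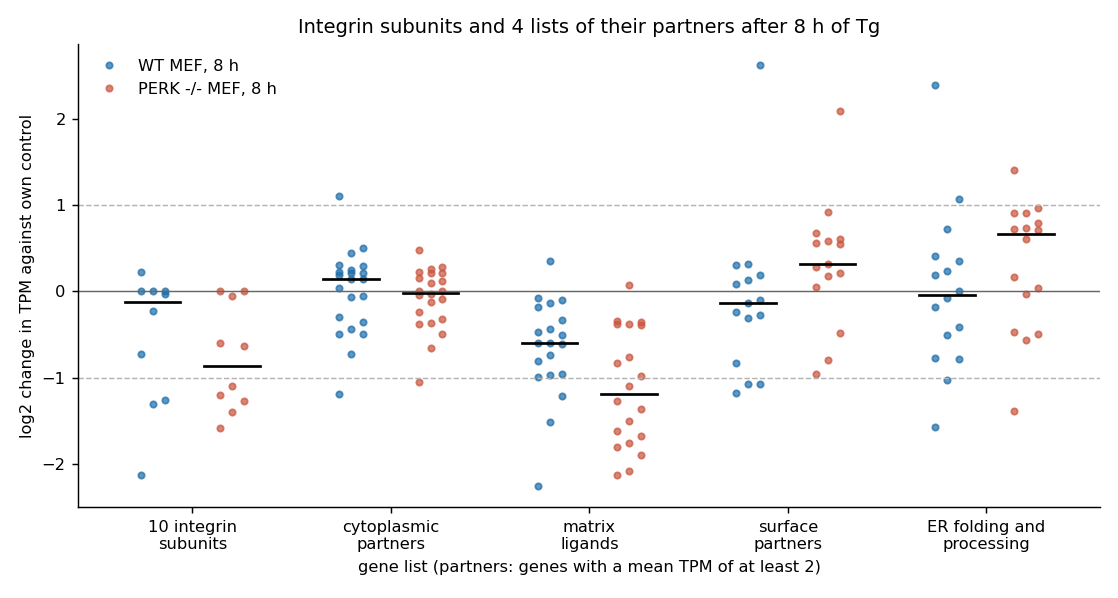
Log2 change in TPM at 8 h of Tg (vertical) for the 10 integrin subunits and for the genes of 4 lists of their partners whose TPM averaged at least 2 (horizontal), in WT and PERK -/- MEFs. Each point is a gene, black bars are medians and dashed lines are 2-fold. The matrix ligands have the lowest medians, -0.60 in WT and -1.19 in PERK -/- MEFs.

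Base composition moved with these changes. Across 10007 expressed genes with a sequence, the log2 change in WT MEFs had a Pearson r with the GC content of the coding sequence of 0.23 at 1 h and 0.43 at 8 h. The PERK -/- values were -0.34 at 1 h, -0.44 at 2 h and -0.03 at 8 h, and in NIH3T3 cells -0.10 and -0.05. These r values are across genes of the same pair of libraries, and genes are not independent replicates. Itgb1, Itga6 and Itgav have fewer G and C bases than the median gene, and Itga3, Itga5 and Itgb5 (57.7%, 56.9% and 55.7%) more. Itga3, with the highest GC content of these 6, was lower than control in WT at all 4 times. The part of base composition in the changes of single subunits was not tested. With a smooth GC trend taken out, a step chosen after the data were seen, the WT log2 changes at 8 h were -0.90 for Itgb1, -2.0 for Itga6, -1.23 for Itgav, -1.02 for Itga3, -0.30 for Itga5 and 0.00 for Itgb5. Itgb1 was then no longer 2-fold lower in WT and Itga3 was. The part of base composition in the early difference between genotypes was not tested further. With the trend removed, Itgb1 at 1 h was at -0.62 in WT and -0.19 in PERK -/- MEFs, and Itga6 at -1.13 and -0.12.

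**Figure D5:**
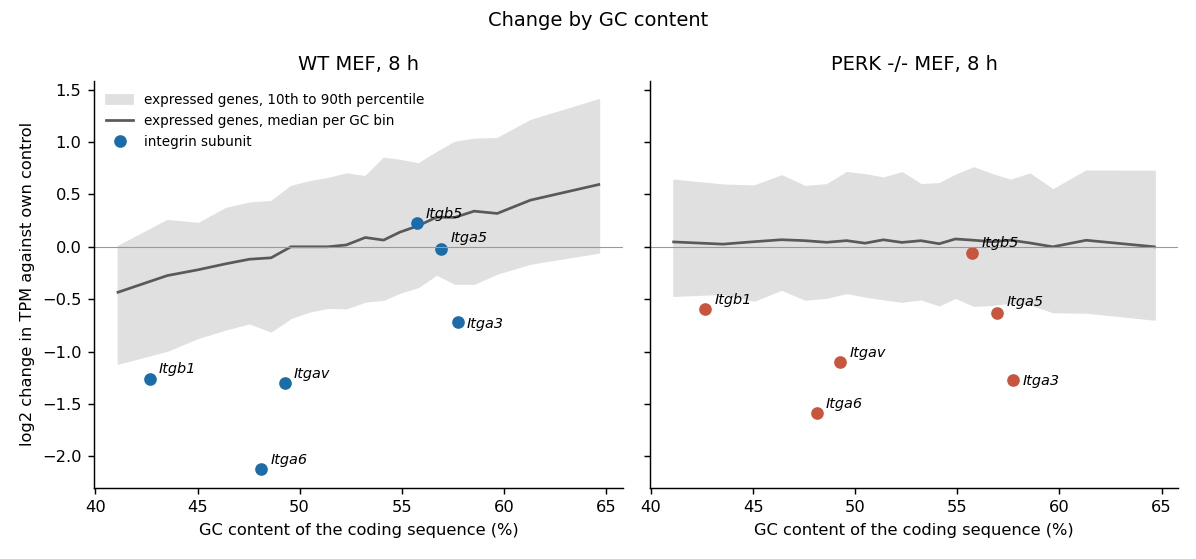
Log2 change in TPM at 8 h of Tg (vertical) against the GC content of the coding sequence in percent (horizontal) in WT (left) and PERK -/- MEFs (right). The line is the median and the band the 10th to 90th percentile of the expressed genes in 20 bins of GC content, and the points are 6 integrin subunits. The median climbs with GC content in WT and is flat in PERK -/- MEFs.

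The genes whose levels ran most like Itgb1 were ranked by Pearson r of log2 TPM over the 10 MEF libraries, among 7291 genes whose TPM averaged at least 10. They were Met (0.97), the receptor of hepatocyte growth factor, Afg3l2 (0.96), a mitochondrial protease, and Arglu1, Lmnb1 and Zranb2 (0.95 each). Met had 24.1 and 6.26 TPM in the WT control and at 8 h, and 16.7 and 10.2 in PERK -/- MEFs. Among the subunits, Itgav had r 0.90 and Itga6 0.85, at ranks 80 and 182, then Itga3 0.47, Itgb5 0.08 and Itga5 -0.34. The libraries, their depths and the GC trend are shared by all these genes, so r is a description only.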

How the data were processed

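The series holds 13 ribosome footprint libraries, 5 of PERK WT MEFs, 5 of PERK -/- MEFs and 3 of NIH3T3 cells, with 1 library for each condition. The authors kept footprints of 22 to 34 nt, filtered rRNA and tRNA with STAR, used Bowtie2 to map to mm10 RefSeq coding sequences without the outer 30 nt of either end, dropped transcripts under 100 nt and ran RSEM. Versions are not given in the sources used here. Deposited by the authors were unscaled expected counts, all whole numbers. The TPM values were deposited by the authors, scaled within each library by RSEM.

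From these, log2 ratios of TPM (floor 4 TPM) were taken against the own control, genes averaging at least 2 TPM gave the background, and exact conditional (Clopper-Pearson) intervals with 95% confidence were computed from counts per library total. The interval of a difference between genotypes came from Poisson variances. Total counts ran from 2525029 (3 counts are 1.19 CPM) to 14799515 (0.203 CPM). No test between conditions was made, since each group has 1 library.

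Members and gene lists were chosen with earlier results of these data known. Named were all 10 subunits, Eif2ak3, Atf4, up to 4 genes per list with the largest WT change at 8 h and at least 100 counts in both libraries, other subunits averaging at least 2 TPM, and the 5 genes most like Itgb1. Genes in closing observations outside this rule were chosen after their values were seen.

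Also tried were counts per library total (pseudocount 0.5), a 1 TPM floor, a 1 TPM pseudocount, TMM factors, DESeq2 size factors, thinning to the smallest library, 1.5 and 3-fold limits, a mean TPM of 5 or none and, added after seeing the data, removal of a lowess GC trend (fraction 0.3; 95.9% of expressed MEF genes had a sequence). The call and the interval were tested on simulated data. Scripts ran in Python 3.11.15 (scipy 1.17.1, statsmodels 0.14.6, pandas 2.3.3, numpy 2.4.6, matplotlib 3.10.9) and in R 4.3.3 (DESeq2 1.42.0, edgeR 4.0.16).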

Additional observations from a re-analysis of the deposited data

How the results depend on the processing

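Of 22 decreases of at least 2-fold against the own control, 22 held with a floor of 1 TPM and with thinning, 21 with a pseudocount or with counts, 20 with TMM or DESeq2 factors and 17 with the GC trend removed. Those lost were Itgb1 in WT at 5 and 8 h (GC trend), Itga11 in PERK -/- MEFs at 1 h (all but the floor and thinning) and 2 h (GC trend), and Itga5 in NIH3T3 cells at 7 h (TMM, DESeq2 and GC trend). The number of subunits 2-fold lower changed by more than 1.5 times in the cases that follow and by no more in the others. With a 1.5-fold limit it was 3 and 4 in WT at 1 and 2 h, 3, 5 and 5 in PERK -/- MEFs at 1, 2 and 5 h, and 5 in NIH3T3 cells at both times. With a 3-fold limit it was 0 in WT at 1 and 2 h and 1 at 5 and 8 h, the same 0 and 1 in PERK -/- MEFs, and 0 and 1 in NIH3T3 cells. With a floor of 1 TPM it was 2 in WT at 1 h, and 2 and 4 in NIH3T3 cells. With counts per library total it was 2 in WT at 1 and 2 h, 0 in PERK -/- MEFs at 1 h, and 2 and 5 in NIH3T3 cells. With thinning it was 2, 2 and 5 in WT at 1, 2 and 8 h, and 2 and 5 in NIH3T3 cells. With TMM or DESeq2 factors it was 2 in WT at 2 h, 0 in PERK -/- MEFs at 1 h and 1 in NIH3T3 cells at 7 h. The pseudocount gave 0 in PERK -/- MEFs at 1 h and 4 in NIH3T3 cells at 7 h, and the removal of the GC trend 0 and 1 there. The number of all genes 2-fold lower moved with the setting too. In NIH3T3 cells at 7 h it was 815 of 10117 as reported, 1324 with a floor of 1 TPM, 1380 with counts and 1410 with thinning. It was 1099 there with the pseudocount, 678 with TMM and 633 with DESeq2 factors. In WT at 8 h it was 404 of 10432 as reported and 619 with thinning. In PERK -/- MEFs at 1 h it was 353 as reported and 570 with counts. The cause of each move was not tested, apart from the floor, which by its construction hides decreases of genes under 4 TPM. The difference between genotypes at 8 h for Itgb3 turned from -1.17 in floored TPM to 0.22 in counts. No paired analysis was possible because each condition has 1 library, and for the same reason no replicate could be left out. Depth limits Itga1, Itga4, Itgb3 and Itga11, with as few as 0 counts in a library.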

Other observations

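Of 16 other integrin subunits, Itga7, a laminin receptor chain known from muscle, was the only one with a mean TPM of at least 2 in MEFs. It had 23.6 and 22.1 TPM in the WT control and at 8 h. In PERK -/- MEFs it had 19.4 and 10.9 TPM, and it was 2-fold lower there at 1 h and 2 h, with log2 changes of -1.18 and -1.57. In NIH3T3 cells Itga7 had 9.38 TPM in the control and 6.58 at 7 h. Itgb4, the partner of Itga6 in epithelial laminin receptors, reached that mean in NIH3T3 cells alone, with 580 counts before Tg and 86 and 160 counts after 2 and 7 h. Its log2 change of counts at 7 h was -0.91 (interval -1.17 to -0.65). Itgb7 also reached it in NIH3T3 cells, on 32 counts or fewer.

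Some subunits were chosen after their values were seen. Itga2, a collagen receptor chain, had 148 counts in the WT control and 17 in the PERK -/- control, a log2 ratio of -2.29 (-3.11 to -1.57). In WT MEFs at 8 h it had 30 counts, with a log2 change of -2.21 (-2.82 to -1.63), while in PERK -/- MEFs at 1 h it had 76 and a log2 change of 1.59 (0.82 to 2.44). All its levels were under the floor of 4 TPM. Itgb8, a partner of Itgav, had 9 counts in the WT control and 48 in the PERK -/- control, and 60 to 66 in the PERK -/- Tg libraries. Those libraries were deeper than their control. Per library total its log2 changes were -0.11 (-0.67 to 0.46) at 1 h and -0.72 (-1.28 to -0.15) at 2 h. They were 0.14 (-0.43 to 0.71) at 5 h and 0.18 (-0.39 to 0.76) at 8 h.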
